A study of Mus musculus with 6 samples.

Results

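The brush border is the carpet of microvilli on the apical face of intestinal absorptive cells. Here 10 genes that encode its proteins were followed in mouse tumour organoids (MTOs) given Folfiri, out of 24190 genes listed in the deposited counts. The genes were chosen by name and role: Espn, Vil1 and Pls1 for the actin bundlers, Eps8 for the microvillus tip, Ezr and Myo1a for the links between core and membrane, and Cdhr2, Cdhr5, Ush1c and Myo7b for the intermicrovillar adhesion complex. MTO54 is a single parental organoid line labelled AKP, and all cultures of both groups came from it and shared its genotype. Dissociated cells were seeded in basement membrane extract, and after 2 days they received fresh complete medium (control, n = 3) or the same medium with 5FU at 50 μg/μl, the unit as written, and SN38 at 100 nM (Folfiri, n = 3). The labels and methods give 2 days of treatment, whereas a figure legend gives a longer one. Poly(A) RNA of whole cultures was sequenced at 22103591 to 30098210 counts per sample.

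A microvillus is a rod of parallel actin filaments wrapped in membrane. Bundling proteins hold the filaments side by side, a capping and bundling protein sits at the tip, and ezrin and class I myosins tie the core to the membrane. At the tips, a pair of protocadherins binds from one microvillus to the next, and a scaffold and an unconventional myosin anchor them inside the cell, which packs the microvilli into a regular array. These genes rise as intestinal cells differentiate, and most of them are expressed in other epithelia or in inner ear hair cells as well.

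Levels are library-scaled counts (CPM) after scaling with edgeR's TMM factors, and a call is an adjusted p (Benjamini-Hochberg over all 14692 genes tested) below 0.05. The treatment moved most of the transcriptome: 79.1% of tested genes were called, 40.3% higher and 38.8% lower after Folfiri. The TMM factors of the controls (0.880 to 0.966) were all below those of the Folfiri cultures (1.10 to 1.11). Scaling by total counts alone moved the median log2 fold change of all genes from 0.02 to 0.30, and a small change can therefore gain or lose its call with the scaling. Control replicate 1 stood apart from the other controls. Its squared count differences from them were 23.9 to 25.3 times the sampling variance, against 4.03 between control replicates 2 and 3. Squared differences of Folfiri replicate 3 from the other treated cultures were 12.8 to 13.3 times the sampling variance, against 3.76 between the other treated cultures. All 6 epithelial markers checked were above 1 CPM on average in both groups, and their summed level was 6034 to 7032 CPM in controls and 4802 to 4950 CPM after Folfiri. The markers did not move together: Epcam, Cdh17, Krt19 and Krt8 were lower, Krt18 had no call and Cdh1 was higher (log2 fold change 0.21). Their part in the results was not tested. Among markers of tuft cells, which also carry villin and advillin, only Avil and Alox5ap of 7 reached 1 CPM in controls, and Dclk1 and Il25 were at 0 in every control. Of the immune cell, fibroblast and endothelial markers, only Cd68 and Cdh5 reached 1 CPM in controls. Of the fibroblast markers, Pdgfra was at 0.397 CPM in controls and 1.14 CPM after Folfiri, and Col3a1 was at 0 in every control. Dcn had 2, 0 and 0 counts in controls and 19, 26 and 20 after Folfiri. Col1a1 had 17, 26 and 17 counts in controls and 11, 9 and 8 after Folfiri. Pdgfra and Dcn passed the expression filter only through the treated cultures and Col1a1 only through the controls, so no call is read from them. Nothing in the labels says whether the 3 cultures of a group were grown independently, although a legend calls them biological replicates, so p-values measure the spread between these samples.

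Of the 10 brush border genes, 9 passed the expression filter and 5 were lower after Folfiri: Espn, Myo7b, Pls1, Cdhr5 and Cdhr2. This 5 of 9 stands beside the 38.8% of all tested genes that were lower. Vil1, Eps8 and Ezr had no call, and Ush1c was not tested. Myo1a was called higher, but it passed the filter only through the treated cultures, so its direction was set by the filter. Without Myo1a, 0 of 8 tested genes were higher. The median log2 fold change of the 9 was -0.37, beside 0.02 over all tested genes. Groups did not overlap for 6 of the 9, with 5 lower after Folfiri and only Myo1a higher. Groups were likewise separate for 81.4% of all tested genes, with 41.6% higher and 39.9% lower. In whole cultures, fewer cells of a type and less RNA per cell cannot be told apart.

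**Figure D1:**
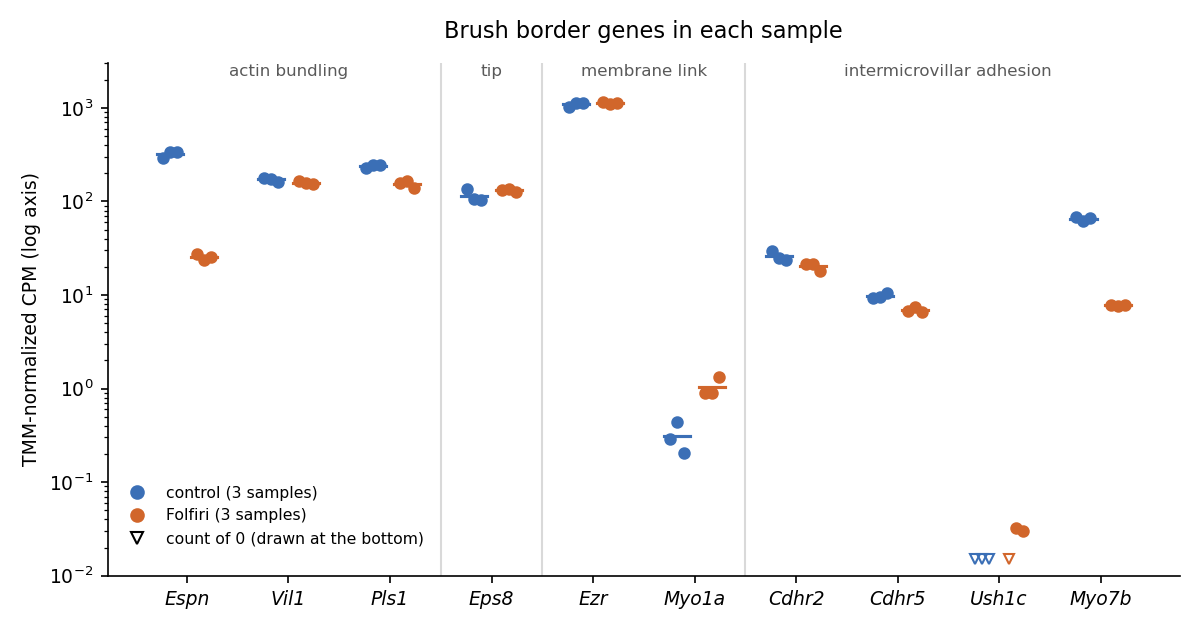
TMM-normalized level of each brush border gene in the 6 samples, on a log axis in CPM, with a point for each sample, a bar for the group mean and panels ordered by role. Espn and Myo7b fell about an order of magnitude between tight groups, while the points of Vil1, Ezr and Eps8 overlap.

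Per kilobase of exonic sequence, which allows levels of different genes to be set side by side, the transcripts of control MTOs ranked Ezr first (332 CPM per kilobase), then Pls1 (61.4), Vil1 (48.4), Espn (39.0), Myo7b (9.92), Eps8 (9.28), Cdhr2 (6.32), Cdhr5 (3.57) and Myo1a (0.0838). Only the neighbours Myo7b and Eps8 lay within each other's spread. After Folfiri the order was Ezr (343), Vil1 (44.8), Pls1 (39.4), Eps8 (10.6), Cdhr2 (4.92), Espn (3.09), Cdhr5 (2.52), Myo7b (1.18) and Myo1a (0.282). Espn thus moved from the level of the other bundlers to that of the protocadherins, and Myo7b to below both of them. Eps8 and Espn have long annotated exonic lengths (12355 and 8272 bases, against 3551 for Vil1 and 3890 for Pls1), which lowers their values per kilobase. By CPM, Espn was the highest of the bundlers in controls, so its rank and its share among them rest on these lengths.

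Among the actin bundlers, Espn changed most. Espn (ENSMUSG00000028943, chromosome 4, 152120331 to 152152371, minus strand, GRCm38) encodes espin, a bundler that also sets microvillus length and is mutated in deafness. It was at 294, 339 and 335 CPM in control replicates 1, 2 and 3 and at 27.4, 23.9 and 25.4 CPM in Folfiri replicates 1, 2 and 3. Every treated culture was far below every control, and both groups were tight. The means were 323 ± 24.9 and 25.6 ± 1.71 CPM (SD, n = 3), a 12.6-fold lower level (log2 fold change -3.66, SE 0.09, 95% interval -3.86 to -3.46, adjusted p = 1.24e-09). Among all tested genes, 83 had a lower log2 fold change, and 4.91% were called with a log2 fold change of -2 or lower. Leaving out any replicate kept the value between -3.72 and -3.61.

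Vil1 (ENSMUSG00000026175, chromosome 1, 74409376 to 74435559, plus strand) encodes villin, a gelsolin-family protein that bundles actin and severs it at high calcium. Its level was 179, 176 and 161 CPM in controls and 167, 157 and 154 CPM after Folfiri, so that the groups overlapped. The log2 fold change was -0.11 (SE 0.07, 95% interval -0.27 to 0.05, adjusted p = 0.183), and it was 0.16 under scaling by total counts. Vil1 shares a few exonic bases with Usp37 on the other strand, and without a stated strand setting reads there cannot be assigned.

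Pls1 (ENSMUSG00000049493, chromosome 9, 95752642 to 95845311, minus strand) encodes plastin 1, also called fimbrin, which crosslinks filaments along the core and into the rootlet. It was at 225, 246 and 245 CPM in controls and at 156, 163 and 141 CPM after Folfiri. All treated cultures were below all controls, by a smaller margin than for Espn. The log2 fold change was -0.64 (SE 0.08, adjusted p = 2.36e-05), and it was -0.36 under scaling by total counts.

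Shares of the bundlers among themselves do not depend on the scaling between samples. Of the reads per kilobase on Espn, Vil1 and Pls1 together, Espn held 24.7%, 26.7% and 27.2% in controls and 3.66%, 3.25% and 3.72% after Folfiri. The mean difference was -22.7 percentage points. Vil1 rose from 32.5% to 51.4% of this sum, and Pls1 went from 41.2% to 45.1%. No group overlapped for any of these shares, and 0.1 is the smallest p that an exact two-sided permutation test of 3 against 3 can give, which each of them reached.

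The promoters of Espn, the bundler that changed most, and of Vil1, a bundler without a call, are shown so that their letters can be compared. Each is the 250 bases before the RefSeq start site on GRCm38.p6 (Espn first start site, chr4:152152390-152152639, minus strand, and Vil1, chr1:74409134-74409383, plus strand), written 5′ to 3′, with matches to the searched motifs in capitals.
Espn: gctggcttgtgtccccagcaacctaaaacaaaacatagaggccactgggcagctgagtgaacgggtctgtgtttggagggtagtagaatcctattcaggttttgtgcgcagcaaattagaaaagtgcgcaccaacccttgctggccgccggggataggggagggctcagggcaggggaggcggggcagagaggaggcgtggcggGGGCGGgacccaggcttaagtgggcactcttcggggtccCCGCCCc
Vil1: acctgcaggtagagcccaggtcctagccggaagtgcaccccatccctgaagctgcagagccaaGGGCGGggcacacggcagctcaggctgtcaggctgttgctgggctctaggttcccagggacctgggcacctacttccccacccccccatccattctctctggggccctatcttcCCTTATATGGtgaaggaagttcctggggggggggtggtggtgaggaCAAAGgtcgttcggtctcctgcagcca
The motifs were searched on both strands: GGGCGG (the GC box), CAAAG (a core of HNF4 sites), TTTAT (a core of CDX sites), TATAAA and the CArG box bound by SRF. TATAAA overlaps TTTAT read on the other strand. The Espn window held GGGCGG at 46 to 41 bases before the start and again, on the other strand, at 7 to 2 bases. RefSeq lists 3 start sites for Espn, and the window of the third, not printed, held CAAAG at 202 to 198 and 51 to 47, TTTAT at 195 to 191 and GGGCGG at 16 to 11 bases before the start, all on the other strand. The Vil1 window held GGGCGG at 187 to 182, a CArG box at 73 to 64 and CAAAG at 27 to 23 bases before the start. Over all 32851 windows of this length, 32.7% held GGGCGG, 48.6% CAAAG, 37.3% TTTAT, 12.4% TATAAA and 1.47% a CArG box. A match describes letters and is no evidence of binding.

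At the tip, Eps8 showed no call. Eps8 (ENSMUSG00000015766, chromosome 6, 137477245 to 137654876, minus strand) encodes an actin capping and bundling protein that concentrates at microvillus tips and also takes part in growth factor signalling. It was at 136, 106 and 103 CPM in controls and at 132, 136 and 127 CPM after Folfiri. Control replicate 1 lay within the treated range, and the other controls lay below it. The log2 fold change was 0.20 (SE 0.10, 95% interval -0.03 to 0.42, adjusted p = 0.0996). Without control replicate 1 it was 0.34 (adjusted p = 0.000222), and under scaling by total counts it was 0.46 (adjusted p = 0.00841), so the call depends on that library and on the scaling.

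Ezr (ENSMUSG00000052397, chromosome 17, 6738041 to 6782784, minus strand) encodes ezrin, which links actin to membrane proteins when phosphorylated. It was the most abundant brush border transcript, at 1028, 1134 and 1114 CPM in controls and 1169.9, 1106 and 1115 CPM after Folfiri. The groups overlapped, and the log2 fold change was 0.05 (SE 0.08, 95% interval -0.14 to 0.23, adjusted p = 0.599). Scaling by total counts gave 0.33 (adjusted p = 0.000665), close to the shift of all genes under that scaling.

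Myo1a (ENSMUSG00000025401, chromosome 10, 127705170 to 127720940, plus strand) encodes the class I myosin that forms lateral bridges between core and membrane in mature enterocytes. Only 8, 11 and 4 counts fell on it in the controls and 27, 28 and 44 after Folfiri, or 0.288, 0.440 and 0.206 CPM against 0.905, 0.904 and 1.34 CPM. The groups did not overlap at this low level. The log2 fold change was 1.71 (SE 0.33, 95% interval 0.99 to 2.44, adjusted p = 0.000628). Myo1a passed the filter only through the treated cultures, so among genes tested at this level it had to be higher, and with a filter of 1 CPM in 3 samples it was not tested.

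**Figure D2:**
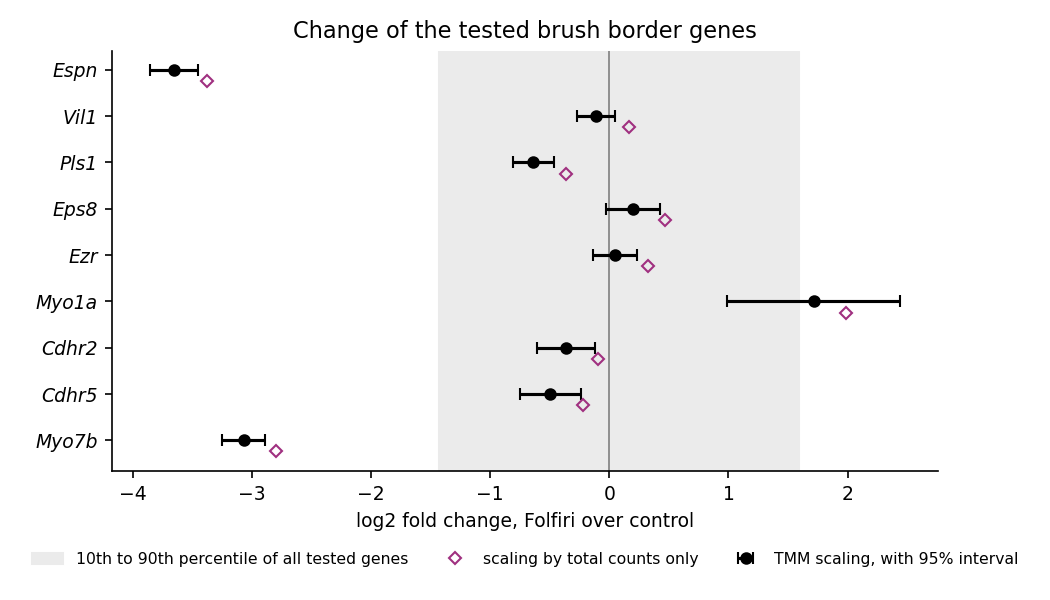
Log2 fold change of each tested brush border gene, Folfiri over control, with its 95% interval from the edgeR fit and an open diamond for the value under scaling by total counts. The grey band runs from the 10th to the 90th percentile of all tested genes (-1.43 to 1.59), and Espn and Myo7b lie far to its left.

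Of the adhesion complex, the cytoplasmic motor fell much further than the protocadherins. Myo7b (ENSMUSG00000024388, chromosome 18, 31959234 to 32036961, minus strand) encodes the myosin that carries the complex to microvillus tips. It was at 67.9, 62.5 and 66.6 CPM in controls and at 7.91, 7.71 and 7.80 CPM after Folfiri. Every treated culture was far below every control, and the treated cultures were almost equal. The means were 65.7 ± 2.84 and 7.81 ± 0.101 CPM (SD, n = 3), an 8.40-fold lower level (log2 fold change -3.07, SE 0.08, 95% interval -3.25 to -2.89, adjusted p = 1.61e-09). Of all tested genes, 198 had a lower log2 fold change.

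Cdhr2 (ENSMUSG00000034918, chromosome 13, 54701461 to 54736662, plus strand) encodes protocadherin-24, which binds Cdhr5 across the gap between microvilli. Its level was 29.4, 25.0 and 23.9 CPM in controls and 21.6, 21.3 and 18.0 CPM after Folfiri. The groups were separate by a small margin. The log2 fold change was -0.37 (SE 0.11, adjusted p = 0.00992) and ranged from -0.43 to -0.27 when each replicate was left out. Under scaling by total counts it was -0.09 (adjusted p = 0.536), and the call was lost.

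Cdhr5 (ENSMUSG00000025497, chromosome 7, 141269083 to 141276786, minus strand) encodes the mucin-like protocadherin that pairs with Cdhr2. It was at 9.22, 9.60 and 10.5 CPM in controls and at 6.74, 7.36 and 6.64 CPM after Folfiri, again with separate groups. The log2 fold change was -0.50 (SE 0.11, adjusted p = 0.00214), and under scaling by total counts it was -0.22 (adjusted p = 0.109), which lost the call. Relative to the median of all genes the values were -0.39 for Cdhr2 and -0.52 for Cdhr5 under either scaling. The log2 ratio of Cdhr2 to Cdhr5 per kilobase averaged 0.82 ± 0.24 over the controls and 0.96 ± 0.12 over the treated cultures (SD, n = 3, exact two-sided permutation p = 0.4). The difference ranged from 0.0241 without control replicate 3 to 0.267 without control replicate 1.

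The promoter windows of the protocadherin pair are shown because the proteins work as partners and both transcripts were lower under TMM scaling. Cdhr2 is from chr13:54701213-54701462 on the plus strand and Cdhr5 from chr7:141276787-141277036 on the minus strand, in the same layout.
Cdhr2: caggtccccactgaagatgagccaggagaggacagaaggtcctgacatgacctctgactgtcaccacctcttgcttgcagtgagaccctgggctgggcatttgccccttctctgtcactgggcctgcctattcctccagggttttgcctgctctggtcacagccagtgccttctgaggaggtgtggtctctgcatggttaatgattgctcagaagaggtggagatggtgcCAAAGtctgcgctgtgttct
Cdhr5: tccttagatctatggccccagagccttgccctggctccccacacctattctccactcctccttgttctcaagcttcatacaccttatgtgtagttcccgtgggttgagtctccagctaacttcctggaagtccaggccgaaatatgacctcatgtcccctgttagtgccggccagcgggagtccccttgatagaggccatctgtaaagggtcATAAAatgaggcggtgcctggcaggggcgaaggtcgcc
The pair shared no searched motif. The Cdhr2 window held CAAAG at 20 to 16 bases before the start, and the Cdhr5 window held TTTAT, read on the other strand, at 38 to 34 bases. Both motifs are common in windows of this length, at the shares given above. RefSeq windows were searched for 8 of the 10 genes. Eps8 and Myo7b were not among them, so their promoters were not examined, and whether RefSeq lists start sites for them was not tested.

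Ush1c (ENSMUSG00000030838, chromosome 7, 46195350 to 46238503, minus strand) encodes harmonin, the scaffold that joins the protocadherins to Myo7b. It had 0 counts in every control and 0, 1 and 1 counts in the treated cultures. A count of 0 allows up to 3 counts, which is 0.108 to 0.154 CPM in the controls, so Ush1c mRNA was not detectable at this depth in control MTOs. Another scaffold of the complex, Anks4b, had at most 5 counts in any sample and was not tested. Calml4, the calmodulin-like light chain of Myo7b, fell with it, from 33.5, 38.0 and 38.9 CPM to 4.93, 4.23 and 4.79 CPM (log2 fold change -2.98, SE 0.11, adjusted p = 6.03e-09). The log2 ratio of Myo7b to Calml4 per kilobase averaged -0.02 ± 0.16 over the controls and -0.11 ± 0.10 over the treated cultures (SD, n = 3, exact two-sided permutation p = 0.5), a ratio chosen after both values were seen.

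Other microvillus genes moved in both directions. Of 19 on the list, 15 were tested, 7 were higher and 7 were lower, with a median log2 fold change of -0.10 beside 0.02 over all genes. Over all tested genes, 40.3% were higher and 38.8% lower, so a division in both directions is what the whole transcriptome showed. Among the lower ones were Calml4 and a group of myosins: Myo5b, which carries recycling endosomes to the apical membrane (84.4 to 23.3 CPM, log2 fold change -1.86, adjusted p = 1.13e-08), Myo6, the motor that walks towards the base of the microvillus (53.3 to 15.0 CPM, -1.83, adjusted p = 3.84e-08), and Myo1d (-1.13). Higher were the kinases Stk26 (2.51 to 9.03 CPM, log2 fold change 1.83), which phosphorylates ezrin during polarization, and Stk10 (1.43), also an ezrin kinase, together with the actin regulator Twf2 (0.83) and the Eps8 relative Eps8l2 (0.80). Cobl, an actin nucleator of the terminal web, had no call at -0.10.

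Relatives of the brush border genes also changed in both directions, with 8 higher, 8 lower and 5 without a call among 21 tested, and a median of -0.03. These counts are near the shares of all tested genes, 40.3% higher and 38.8% lower. The plastins moved apart. Pls3 was at 243, 248 and 242 CPM in controls and at 360.2, 358 and 336 CPM after Folfiri (log2 fold change 0.53, adjusted p = 3.71e-05), while Lcp1, the leukocyte plastin, went from 0.206 to 0.360 CPM up to 4.80 to 6.45 CPM (log2 fold change 4.31, SE 0.25, adjusted p = 9.97e-08). Lcp1 had 10, 7 and 4 counts in the controls and, like Myo1a, passed the expression filter only through the treated cultures. The share of plastin reads per kilobase on Pls1 went from 51.6 ± 1.15% to 32.0 ± 0.942% (SD, n = 3) and that of Pls3 from 48.4% to 67.5%. Markers of immune cells, which express Lcp1, summed to 21.3 to 26.0 CPM in controls and 21.4 to 22.4 CPM after Folfiri, nearly all of it on Cd68. Ptprc, the leukocyte marker CD45, had 13, 9 and 7 counts in controls and 33, 35 and 31 after Folfiri (0.396 and 1.06 CPM). It too passed the filter only through the treated cultures, so no call is read from it, and its part in the Lcp1 level was not tested.

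In the ERM family, Msn (moesin) rose from 127, 123 and 128 CPM to 272, 289 and 265 CPM (log2 fold change 1.13, adjusted p = 1.51e-07), and Rdx (radixin) had no call at 0.18 (adjusted p = 0.0533) with separate groups. Its call depends on the setting, since it was higher under total counts (0.46, adjusted p = 0.000229), upper quartile scaling, the filter at 1 CPM, the DESeq2 test, and without control replicate 1 or Folfiri replicate 3. Ezr held 77.8 ± 0.85% of ERM reads per kilobase in controls and 72.8 ± 1.47% after Folfiri, and Msn went from 4.67% to 9.22%. In the Eps8 family, Eps8l3 fell (log2 fold change -0.92) and held 60.7% of the family in controls and 36.0% after Folfiri, whereas Eps8l2 went from 18.8% to 36.9% and Eps8 itself from 19.1 ± 2.54% to 24.6 ± 1.04%. Eps8l2 and Eps8l3 share exonic bases with antisense genes, so their reads are uncertain. Lcp1, Msn, Pdzd7, Avil and Elf3, among other genes named here, also share exonic bases with genes on the other strand. Among class I myosins, Myo1c rose from 169.8 to 386 CPM (log2 fold change 1.18, adjusted p = 8.73e-08) and took 59.0% of the family's reads per kilobase after 29.9% in controls, while Myo1d went from 32.5% to 12.9% and Myo1a stayed below 1% in every sample. All shares named for these families were separate between the groups, with the smallest possible exact permutation p of 0.1. For Eps8, the share of raw counts differed by 2.10 percentage points (exact permutation p = 0.4).

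**Figure D3:**
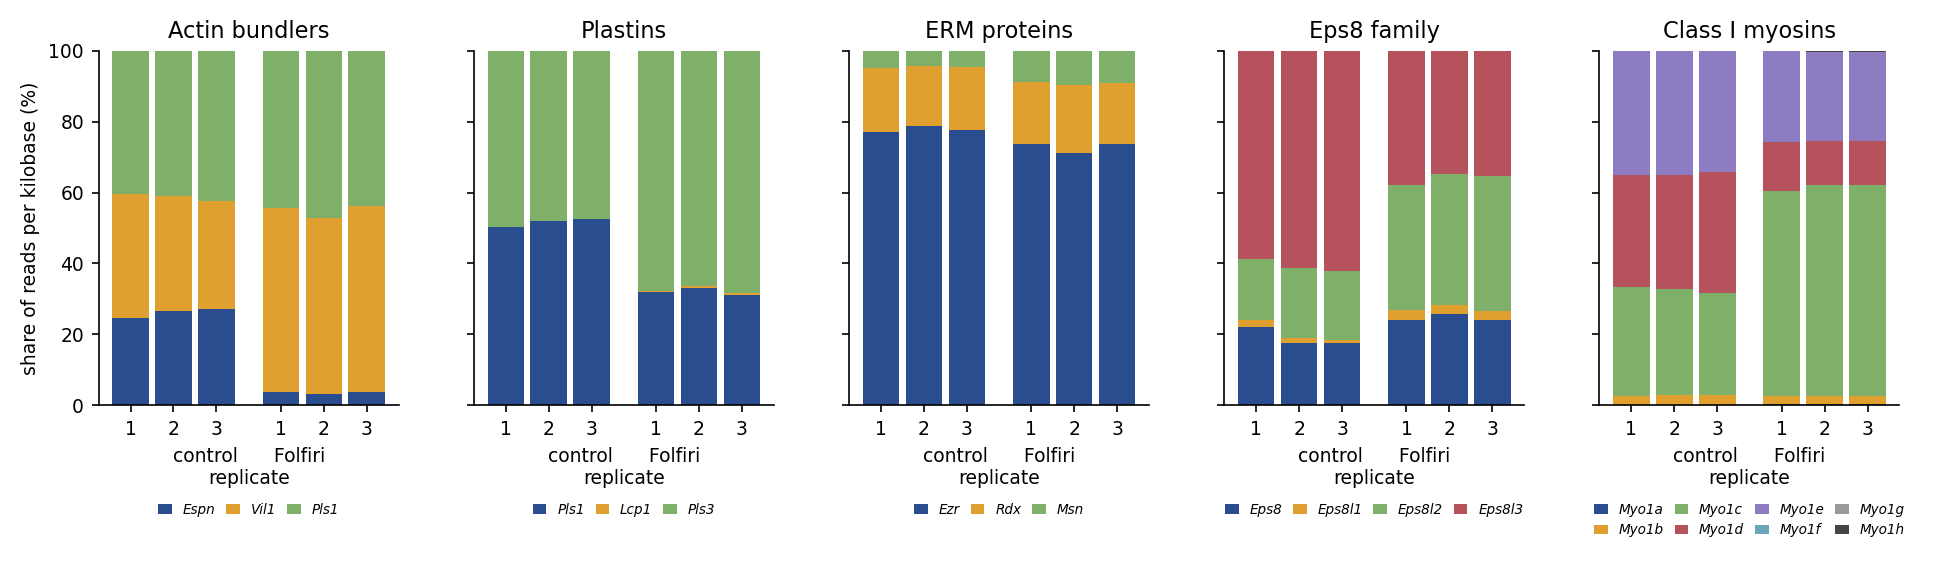
Share of reads per kilobase, in percent, held by each bundler and by each member of 4 protein families in the 6 samples, stacked to the whole. Espn shrinks from 26.2% to 3.54% of the bundlers, and Pls1, Ezr, Eps8l3 and Myo1d hold smaller shares of their families after Folfiri.

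Of the gelsolin family, to which villin belongs, Vill fell (62.5 to 26.9 CPM, log2 fold change -1.22, adjusted p = 3.49e-06) and Scin fell (-0.98), while Gsn had no call (-0.03, adjusted p = 0.693). Avil was lower by a small amount (-0.22, adjusted p = 0.0139), and its sign turned under scaling by total counts (0.05). The call was also lost with upper quartile scaling (adjusted p = 0.0507) and without Folfiri replicate 2 (adjusted p = 0.0651). Of the reads per kilobase on Vil1, Vill, Avil, Gsn and Scin together, Vil1 held 35.2 ± 0.936% in controls and 37.7 ± 0.588% after Folfiri. The related Flii and Svil were not part of this sum. Genes of these families are similar in sequence, and how reads with several positions were counted is not given in the sources used here. The PDZ scaffolds related to harmonin moved apart, with Pdzd7 higher (1.36) and Whrn lower (-1.17). Genes of hair cell stereocilia, which share espin, Eps8 and harmonin with microvilli, were mostly untested, with 1 of 2 tested higher (Myo15, log2 fold change 2.04, whereas Ush1g had 0.07 and no call). Myo15 had 8, 9 and 1 counts in the controls and entered the test only through the treated cultures, so its direction was set by the filter.

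Terminal web and apical traffic genes split as well, 7 higher and 5 lower of 16 tested, with a median of 0.18, again beside 40.3% higher and 38.8% lower over all tested genes. Unc45a, a chaperone that folds myosins, rose from 35.8 to 117.7 CPM (log2 fold change 1.72, adjusted p = 1.39e-08). Also higher were Vps33b (0.76), which sorts cargo to the apical side, the spectrin Sptan1 (0.70) and the tropomyosin Tpm1 (0.63). Rab11a, the GTPase of apical recycling endosomes that binds Myo5b, fell from 179 to 104 CPM (log2 fold change -0.78, adjusted p = 9.04e-06), as did Stxbp2 (-0.64), which acts in apical vesicle fusion. The nonmuscle myosin Myh10 (-0.37) and the cytoplasmic actin Actg1 (-0.38) were lower too, but under scaling by total counts both lost the call (-0.10, adjusted p = 0.518, and -0.09, adjusted p = 0.229), and Myh10 also lost it without Folfiri replicate 3 (adjusted p = 0.0529). The more abundant nonmuscle myosin Myh9 was higher (649 to 820 CPM, log2 fold change 0.34, adjusted p = 0.00569). Actb had no call at 0.16 (adjusted p = 0.228), although it was higher without Folfiri replicate 3 (0.27, adjusted p = 0.0377) and under total counts (0.44).

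The enzymes and transporters that sit in a mature brush border were mostly near 0 counts. Of 22 genes on that list, 19 were listed in the deposited counts. Of these 19, 7 had at most 3 counts in every sample, 2 reached 1 CPM in controls, and 6 were tested. Higher were 4 of the 6, each low: Mgam, the maltase-glucoamylase, went from 0.195 to 1.85 CPM (log2 fold change 3.22, adjusted p = 3.72e-06) and Fabp2, the intestinal fatty acid carrier, from 0.620 to 1.70 CPM (1.47, adjusted p = 0.000146), and Lct and Aqp8 remained below 1 CPM on average. Over all tested genes, 40.3% were higher and 38.8% lower. Genes below the filter in controls could pass it only by being higher, so the 4 of 6 says little. Slc9a3, the apical sodium-proton exchanger, had a log2 fold change of -0.44 (adjusted p = 0.0454) with overlapping groups. The call rests on control replicate 1, at 87.9 CPM against 53.3 and 49.8 CPM in the other controls, and without it the value was -0.13 (adjusted p = 0.137). The call was also lost when any single treated replicate was left out and under scaling by total counts (-0.18). Krt20, a keratin of differentiated colon cells, had no call at -0.13, and the sign turned under total counts (0.14). Sis, Fabp1 and Apoa4, also on the list, were not among the genes listed in the deposited counts.

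Among transcription factors of the intestinal epithelium, 5 of 7 tested were lower and 1 was higher, beside 38.8% and 40.3% of all tested genes. Hnf4a fell from 14.8, 10.4 and 12.3 CPM to 2.08, 2.39 and 1.79 CPM (log2 fold change -2.59, adjusted p = 2.83e-07), and Cdx2 fell from 165, 153 and 153 CPM to 53.7, 55.2 and 54.7 CPM (-1.53, adjusted p = 1.83e-08). Elf3 (-1.31) and Klf5 (-0.66) were lower too. Srf, the factor that binds the CArG box, rose from 31.1, 33.1 and 36.1 CPM to 46.0, 46.2 and 49.5 CPM (log2 fold change 0.50, adjusted p = 0.000218). CAAAG occurs in the promoter windows of Vil1, Pls1 and Cdhr2 and at the third RefSeq start site of Espn, TTTAT in those of Cdhr5 and the third Espn site, and the CArG box in that of Vil1. Whether these factors bear on the brush border genes was not tested.

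**Figure D4:**
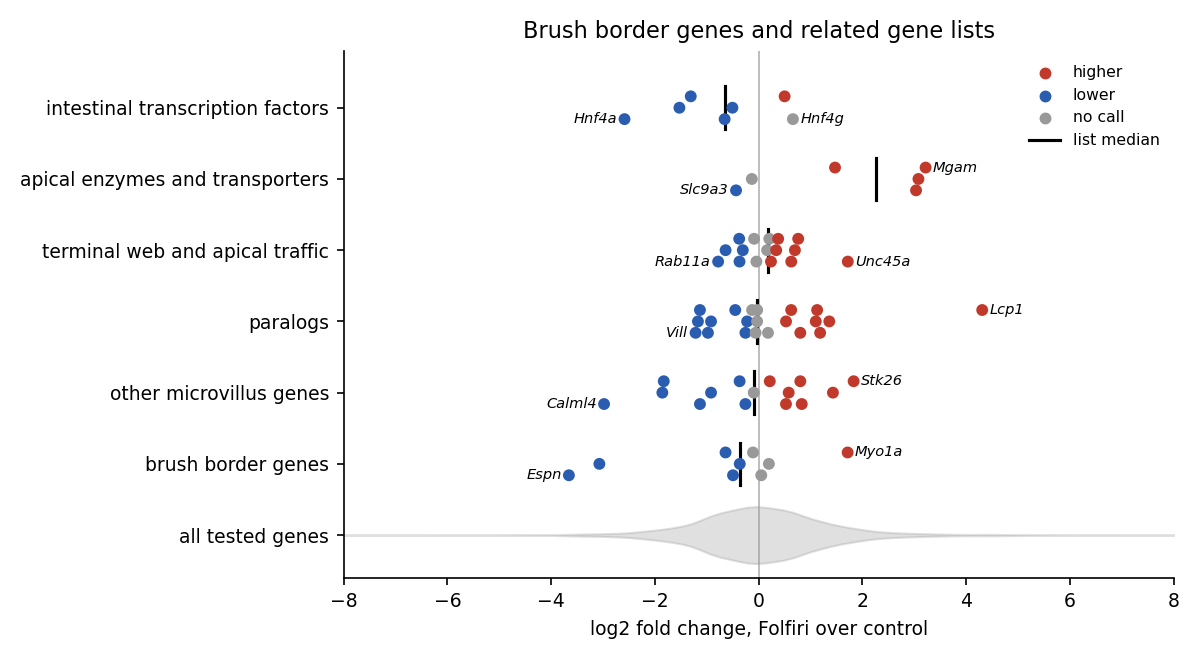
Log2 fold change, Folfiri over control, of every tested gene of the brush border group and of 5 related lists, coloured by call, with the list median as a bar and the distribution of all tested genes at the bottom. The lists spread to both sides of 0. Medians run from -0.66 (transcription factors) to 2.25 (enzymes and transporters, 6 genes, all but Slc9a3 at low level). Espn is the lowest single gene plotted as a point.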

How the data were processed

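RNA was measured in 3 control and 3 Folfiri-treated cultures of MTO54 organoids, grouped by their labels. The authors aligned reads to the mouse genome (GRCm38) with STAR 2.5.2 and GENCODE annotation, used Rsubread for counting reads per gene, and the counts were deposited as raw, unscaled numbers. The strand setting and the handling of reads with several positions are not given in the sources used here. Ensembl identifiers were matched to symbols, positions and exonic lengths in GENCODE on the same build.

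Counts were analysed in R 4.3.3 with edgeR 4.0.16 (expression filter at defaults, TMM scaling, quasi-likelihood test, Benjamini-Hochberg adjustment over all 14692 genes tested). Standard errors and 95% intervals come from that fit. Totals per sample were 22103591 to 30098210 counts, and limits from such counts cover counting error only. Shares and ratios used CPM per kilobase of exonic sequence and exact two-sided permutation tests. Promoter windows came from RefSeq on GRCm38.p6. The scripts were tested on simulated data.

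The genes and lists were chosen with earlier results of these data known. Named beyond the brush border genes were, for each list, up to 4 genes per direction with the largest called change, separate groups and a mean of at least 1 CPM, together with close relatives of the brush border genes. Cobl, Anks4b, Krt20, Slc9a3, Actb, Myh9, Lct, Aqp8, Myo15, Ush1g and the marker genes were named after their values were seen, as were the bundler shares and the ratio of Myo7b to Calml4. Alternatives were DESeq2 1.42.0, other scalings and filters, the replicate number as a block and each replicate left out in turn.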

Additional observations from a re-analysis of the deposited data

How the results depend on the processing

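Of 116 values of the brush border genes recomputed under other settings, 110 kept their direction and their side of the threshold, as did 491 of 520 values of 40 other named genes. With scaling by total counts, 3 brush border genes were lower (Espn, Myo7b and Pls1, in place of 5) and 3 higher (Ezr, Eps8 and Myo1a, in place of 1). With a filter of 1 CPM in 3 samples, 0 were higher, because Myo1a was not tested, and 2 of the apical enzymes and transporters were called in place of 5. With each replicate left out in turn, 1 to 2 brush border genes were higher, with 2 reached without control replicate 1, when Eps8 was called. Total counts turned the sign of Vil1 (log2 fold change 0.16), Avil (0.0521), Krt20 (0.14) and Gsn (0.24). Gsn also turned with upper quartile scaling (0.0251), and ranged from -0.0666 to 0.00864 over left-out replicates. The change in the log2 ratio of Cdhr2 to Cdhr5 ranged from 0.0241 to 0.267 over left-out replicates. The change in the log2 ratio of Myo7b to Calml4 ranged from -0.15 to 0.00305 over left-out replicates. The cause of these changes was not tested, except that total counts shift all genes upwards. Over the settings, 10630 to 12742 genes were called in all.

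Same-numbered control and Folfiri samples did not deviate together (r = 0.0267, -0.117 and 0.0393 over genes), and not every sample correlated best with its own number, so the numbers do not pair the samples. With a replicate block, 11499 genes were called, and 1 brush border gene was higher and 5 were lower. At this depth a count of 0 limits Ush1c to 0.108 to 0.154 CPM in the controls.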
